A study of Mus musculus with 6 samples.

Results

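Open chromatin was described at 7 mouse genes around which the atria of the embryonic heart (HT) carried clusters of peaks that the posterior second heart field (pSHF) lacked. The genes were *Macrod2*, *Cdh13*, *Spock1*, *Grb10*, *Mc3r*, *Emilin2* and *Lpin2*, 7 of 21627 protein-coding genes counted. They were chosen because earlier counts on these same lists had shown an excess of HT peaks there, so the excess is a description and was not tested. A peak belonged to a locus if its summit lay inside the gene body or within 100 kb of it. The 7 loci held 148 of 49267 HT peaks and 70 of 44018 pSHF peaks, 218 of 93285 in all.

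Wild-type CD1 embryos at embryonic day 10, given no treatment, supplied both tissues, with 3 samples of each. The pSHF is the progenitor tissue dorsal to the heart that adds cells to its venous pole, and the atria are the differentiated chambers there. Embryos were pooled at dissection. ATAC-seq maps DNA that a transposase can reach, and the deposited data are 1 peak list per tissue, so no value here has a replicate, an SD or a p-value, and how far repeated dissections vary is unknown. The fold enrichment of a peak is the authors' caller's ratio of the signal at the summit to its background, and the −log10 q is its adjusted significance. The pileup is the whole number of reads over the summit, recovered from the fold enrichment and the caller's Poisson p. Shared peaks overlapped one from the other tissue by 1 bp or more, and restricted peaks did not. A restricted peak may still have had signal under the threshold in the other tissue. A larger share of cells with a site open and wider opening in each cell cannot be told apart in tissue pieces.

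The 7 genes form no pathway. *Macrod2* encodes an enzyme that removes ADP-ribose from proteins, and *Lpin2* a phosphatidate phosphatase of lipid synthesis. *Cdh13* encodes T-cadherin, a cell adhesion protein held in the membrane by a lipid anchor and known in heart and vessel walls. *Spock1* (testican-1, a secreted proteoglycan) and *Emilin2* (a glycoprotein of elastic fibres) encode proteins of the extracellular matrix. *Grb10* encodes an imprinted adaptor of the insulin and insulin-like growth factor receptors that limits growth, and *Mc3r* a melanocortin receptor known from the hypothalamus. Regulatory elements such as enhancers often lie in introns or between genes, and a peak near a gene need not act on that gene.

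The windows held 39 annotated starts, some of them only a few bases apart. Over the stretch from 250 bases before to 50 after the start, 12 had a shared HT peak, 25 had no HT peak and 2 had an HT-restricted one. A peak over 2 starts counts at both, as did a shared one at *Macrod2* and another at *Lpin2*. The shares over all starts of the genome were not counted. Among the 25 was *1700042O10Rik* near *Grb10*, where a shared HT peak began just past the stretch. The 2 with an HT-restricted peak were an inner start of *Lpin2* and the start of *Gm40007*, a long noncoding RNA gene beside *Mc3r*. Their 250 bases before the start are shown with those of the first *Lpin2* start and of *Mc3r*, from RefSeq on GRCm38.p6, whose coordinates are those of mm10. Sequence entries were matched for 6 of the 7 genes, all but *Cdh13*, so no *Cdh13* start is among the 39. Capitals mark matches, on either strand, to the AGATAA motif of the zinc finger regulators of blood and heart, to the TGTTTAC motif of forkhead proteins, and to the CACTT motif of NKX2-5.
Lpin2 first start, under a peak of both lists: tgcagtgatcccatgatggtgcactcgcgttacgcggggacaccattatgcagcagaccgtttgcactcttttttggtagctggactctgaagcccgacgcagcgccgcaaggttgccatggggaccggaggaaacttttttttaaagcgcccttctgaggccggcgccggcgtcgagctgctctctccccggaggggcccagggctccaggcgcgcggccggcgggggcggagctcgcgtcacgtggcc
Lpin2 inner start, under a peak of HT alone: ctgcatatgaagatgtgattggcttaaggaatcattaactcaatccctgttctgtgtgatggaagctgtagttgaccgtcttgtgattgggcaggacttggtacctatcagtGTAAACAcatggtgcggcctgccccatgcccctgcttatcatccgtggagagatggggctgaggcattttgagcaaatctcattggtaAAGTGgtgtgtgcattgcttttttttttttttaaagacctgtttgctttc
Gm40007 start near Mc3r, under a peak of HT alone: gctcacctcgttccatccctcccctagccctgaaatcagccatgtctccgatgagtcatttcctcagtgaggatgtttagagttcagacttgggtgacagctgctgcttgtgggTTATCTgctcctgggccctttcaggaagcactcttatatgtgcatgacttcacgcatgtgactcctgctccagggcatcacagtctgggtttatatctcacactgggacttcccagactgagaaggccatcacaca
Mc3r start, under a weak HT peak that a pSHF peak just after the start overlaps: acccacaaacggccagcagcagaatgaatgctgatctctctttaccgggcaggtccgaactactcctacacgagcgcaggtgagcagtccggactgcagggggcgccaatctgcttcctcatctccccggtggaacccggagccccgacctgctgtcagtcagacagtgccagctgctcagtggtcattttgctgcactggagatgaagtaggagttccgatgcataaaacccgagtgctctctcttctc

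The first *Lpin2* stretch (chr17:71183282-71183531, plus strand) is 65.2% G and C, and the inner one (chr17:71204404-71204653, plus strand) 44.8%. The *Gm40007* stretch (chr2:172276214-172276463, minus strand) is 52% and that of *Mc3r* (chr2:172248242-172248491, plus strand) 57.6%. At *Gm40007* the match to AGATAA began 136 bases before the start and the HT summit lay 130 bases before it. At the inner *Lpin2* start the TGTTTAC match began 138 bases before the start, a CACTT match 50 bases before it, and the HT summit lay 121 bases before it. AGATAA was found in 10.0% of 32619 such stretches genome-wide, TGTTTAC in 3.19% and CACTT in 40.6%. Also searched were AGGTGT and the longer AGGTGTGA that contains it (T-box), CACTTGA that contains CACTT and can overlap an E-box (NKX2-5), CTAAAAATA (MEF2), GGAATG (TEAD), TGGGTGGTC (GLI) and the E-box CANNTG, on both strands. Of these only the E-box was found in the 4 stretches, once at the first *Lpin2* start and at 2 places in each of the others, against 66.2% of stretches with one genome-wide. Such a match is a run of letters and does not show that a factor binds.

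Most HT peaks at the loci were absent from the pSHF list, while most pSHF peaks there were shared. Of the 148 HT peaks, 105 were HT-restricted (70.9%, exact 95% interval 62.9 to 78.1, counting error over peaks only), against 45.5% of all HT peaks. Of the 70 pSHF peaks, 25 were pSHF-restricted (35.7%, 24.6 to 48.1), against 34.4% of all pSHF peaks. Since the loci were chosen for the first share, nothing is read from its distance to the background. Every locus had more HT-restricted than pSHF-restricted peaks, as the choice requires: 28 and 8 at *Macrod2*, 16 and 6 at *Cdh13*, 15 and 1 at *Spock1*, 15 and 4 at *Grb10*, 17 and 1 at *Mc3r*, 13 and 3 at *Emilin2*, and 14 and 5 at *Lpin2*. An excess of HT-restricted over pSHF-restricted peaks of at least 9, the smallest of the 7, was found in 1.43% of protein-coding gene windows of the same rule. The HT-restricted share ran from 60.0% at *Grb10* to 85.0% at *Mc3r*, and the 7 exact intervals overlapped one another.

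**Figure D1:**
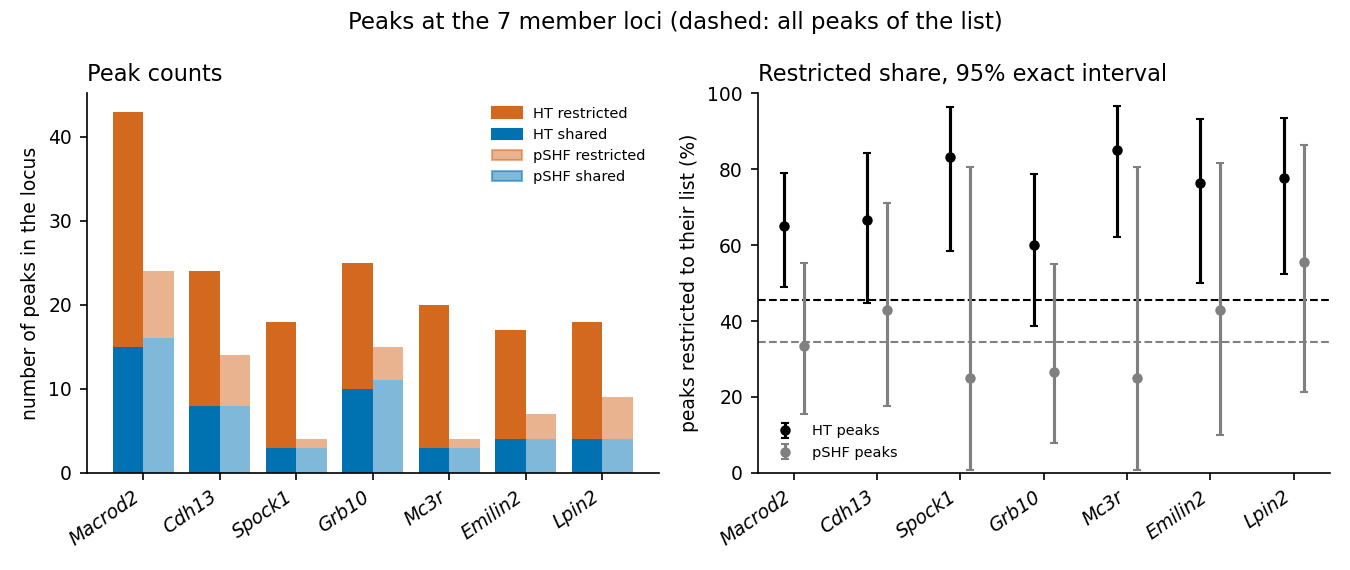
The left panel gives the number of HT and pSHF peaks (vertical axis) at each locus, stacked as shared and restricted. The right panel gives the percentage of each list's peaks that were restricted, with exact 95% intervals and dashed lines at the 45.5% of all HT and 34.4% of all pSHF peaks. HT-restricted peaks are the larger part of the HT bar at every locus, from 60.0% at *Grb10* to 85.0% at *Mc3r*.

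The loci differed in how densely the HT-restricted peaks lay. Around *Mc3r* there were 8.39 per 100 kb, the highest value of any protein-coding gene window. *Lpin2* had 5.26, *Emilin2* 5.01 and *Grb10* 4.89, values reached by 0.476%, 0.615% and 0.781% of gene windows. *Spock1* had 2.18, reached by 20.1%. *Macrod2* had 1.27 and *Cdh13* 1.16 per 100 kb, which 43.6% and 46.0% of gene windows reached, the median window having 0.981. The *Macrod2* excess of 20 peaks was the largest of any gene window, but it was spread over 2198 kb. The *Mc3r* window, at 203 kb, is little more than its flanks, so a density per length also depends on gene length. Since the genes were chosen for an excess of such peaks, these ranks are a description and nothing is read from them.

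The HT-restricted peaks at the loci ranged from weak to strong. Their fold enrichment had a median of 5.44 (quartiles 4.39 and 7.13, range 2.85 to 15.2), against 4.84 for all HT-restricted peaks, and 66 of 105 lay above that value. A −log10 q of at least 5 was reached by 61 of 105, against 40.9% of all HT-restricted peaks, and by 6 of the 25 pSHF-restricted peaks, against 15.9%. The median pileup was 11 reads (range 5 to 51), against 9 over all HT-restricted peaks. Only 4 of the 105 had a pileup of 5, the lowest that was called in the pSHF list at its genome-wide background. The pSHF-restricted peaks at the loci had a median fold enrichment of 4.31 (3.23 to 8.54).

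**Figure D2:**
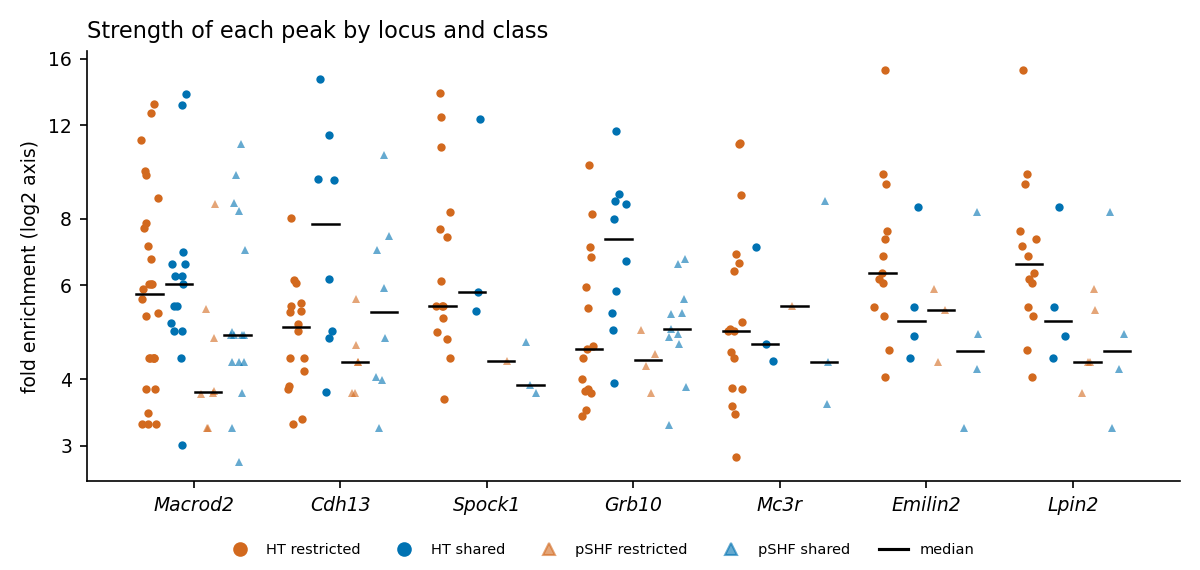
Each point is a peak, with its fold enrichment on a log2 axis, by locus and class, and black lines mark medians. Median HT-restricted values run from 4.55 at *Grb10* to 6.57 at *Lpin2*, and the strongest point, 15.2, belongs to both neighbouring loci *Lpin2* and *Emilin2*.

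The distance from an HT-restricted peak to the nearest pSHF summit differed widely between the loci, and it follows in part from choosing loci where the pSHF lacked peaks. Its median was 76.6 kb at *Spock1* and 54.8 kb at *Cdh13*, but 10.2 kb at *Grb10* and 8.11 kb at *Mc3r*, on either side of the 12.6 kb of all HT-restricted peaks. Over all 105 it was 19.1 kb. A pSHF summit within 1 kb was found for 4 of the 105, against 11.6% of all HT-restricted peaks. These 4 were side by side with a pSHF peak without touching it. At *Cdh13*, 144 kb along the gene, the summits of an HT-restricted peak (fold enrichment 4.14) and a pSHF-restricted peak (4.63) were 0.25 kb apart, so the lists differed there in position. The other 3 were at *Macrod2*, *Mc3r* and *Emilin2*, with 0.901, 0.487 and 0.973 kb to the nearest pSHF summit.

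*Macrod2* (chromosome 2, 140395303 to 142392966, plus strand) is 1998 kb long, and its HT peaks were most numerous in the first part of the gene. Of 39 HT peaks inside the body, 19 lay in the first of 3 equal parts, 12 in the middle part and 8 in the last, and 14, 8 and 3 of them were HT-restricted. The start carried a strong shared peak, with a fold enrichment of 13.1 in HT and 11.1 in pSHF. *Flrt3*, which encodes a leucine-rich repeat membrane protein and lies inside *Macrod2*, carried another over its own start (13.7 and 9.68). From 310 to 730 kb into the gene every HT peak was HT-restricted, the strongest at 490 kb with 12.6 in fold enrichment and 22.5 in −log10 q (chromosome 2, 140885056 to 140885536). Its pileup was 24 reads (exact Poisson 95% interval 15.4 to 35.7), and the nearest pSHF summit was 110 kb away. The next strongest inside the gene were at 876 kb (11.3) and 696 kb (9.66). The strongest of the locus lay just past the far end of the gene, 2004 kb from the start (13.1, pileup 36, interval 25.2 to 49.8).

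A stretch of 289 kb from 1192 to 1481 kb held no HT summit, and its 1 pSHF summit belonged to the shared peak at its far end. From there to the end of the gene lay 8 HT peaks, of which those at 1481, 1663, 1729, 1859 and 1940 kb were shared and 3 were HT-restricted. The first of these had a fold enrichment of 6.94 in HT and 3.77 in pSHF, and at 1729 kb the values were 6.58 and 7.0. The pSHF-restricted peaks of *Macrod2* all lay inside the gene, 309 to 1120 kb from the start. The strongest of them (8.54, −log10 q 11.5, pileup 15) was at 796 kb and was the strongest pSHF-restricted peak of all 7 loci. A shared peak at 743 kb was stronger in pSHF (8.26) than in HT (5.48).

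*Cdh13* (chromosome 8, 118140017 to 119324929) had the lowest density of HT-restricted peaks of the 7 loci. Positions are given from the lower coordinate, since its strand was not used here. Of its 17 HT peaks inside the body 14 were restricted, with the strongest at 487 kb (fold enrichment 8.03, −log10 q 12.1, pileup 18, interval 10.7 to 28.4). The 16 HT-restricted peaks of the locus had a median of 5.01 (95% interval of the median 3.87 to 5.56), where those of *Macrod2* had 5.79 (4.39 to 7.13) and those of *Spock1* 5.48 (4.90 to 8.22), so the intervals overlapped, and 6 had a −log10 q of at least 5. The strongest sites inside the gene were 2 shared peaks near its middle. At 562 kb the fold enrichment was 9.46 in HT and 5.92 in pSHF, and at 573 kb it was 11.5 and 7.0. Beyond these the gene was thinly covered, with 214 kb from 711 to 925 kb free of summits in both lists. No HT-restricted peak lay in the 100 kb past the far end. The strongest shared peaks there sat at *Hsbp1* (14.7 and 10.6), which encodes a heat shock factor binding protein, and at *Mlycd* (9.51 and 7.43), which encodes malonyl-CoA decarboxylase of fatty acid metabolism. The strongest pSHF-restricted peak of the locus (5.66) also lay in *Mlycd*.

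*Spock1* (chromosome 13, 57421195 to 57908332, minus strand) held a group of HT-restricted peaks in the middle of the gene, with fold enrichments of 4.39 to 13.8. Of 14 HT peaks in its 487 kb body, 11 lay in the middle one of 3 equal parts and all 11 were HT-restricted. The strongest were at 235 kb from the start (13.8, −log10 q 29.2, pileup 32, interval 21.9 to 45.2), 280 kb (12.4, −log10 q 30.7, pileup 38, interval 26.9 to 52.2) and 304 kb (10.9, −log10 q 17.2). At the edge of this group, 330 kb from the start, lay a shared peak with a fold enrichment of 12.3 in HT and 3.77 in pSHF. Its ratio of 3.27 was the largest of the 42 paired peaks at the loci, but the pSHF peak was near the calling limit. That peak had a −log10 q of 2.11 and a pileup of 6 reads (interval 2.20 to 13.1). The pSHF list had 4 peaks in the whole locus, and 3 of them lay between the start and 19.0 kb into the gene, while the other one was the partner of the peak at 330 kb. The start itself was only weakly marked in both tissues (5.38 and 3.90). Past 330 kb the next HT summit was 246 kb further on, outside the gene.

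**Figure D3:**
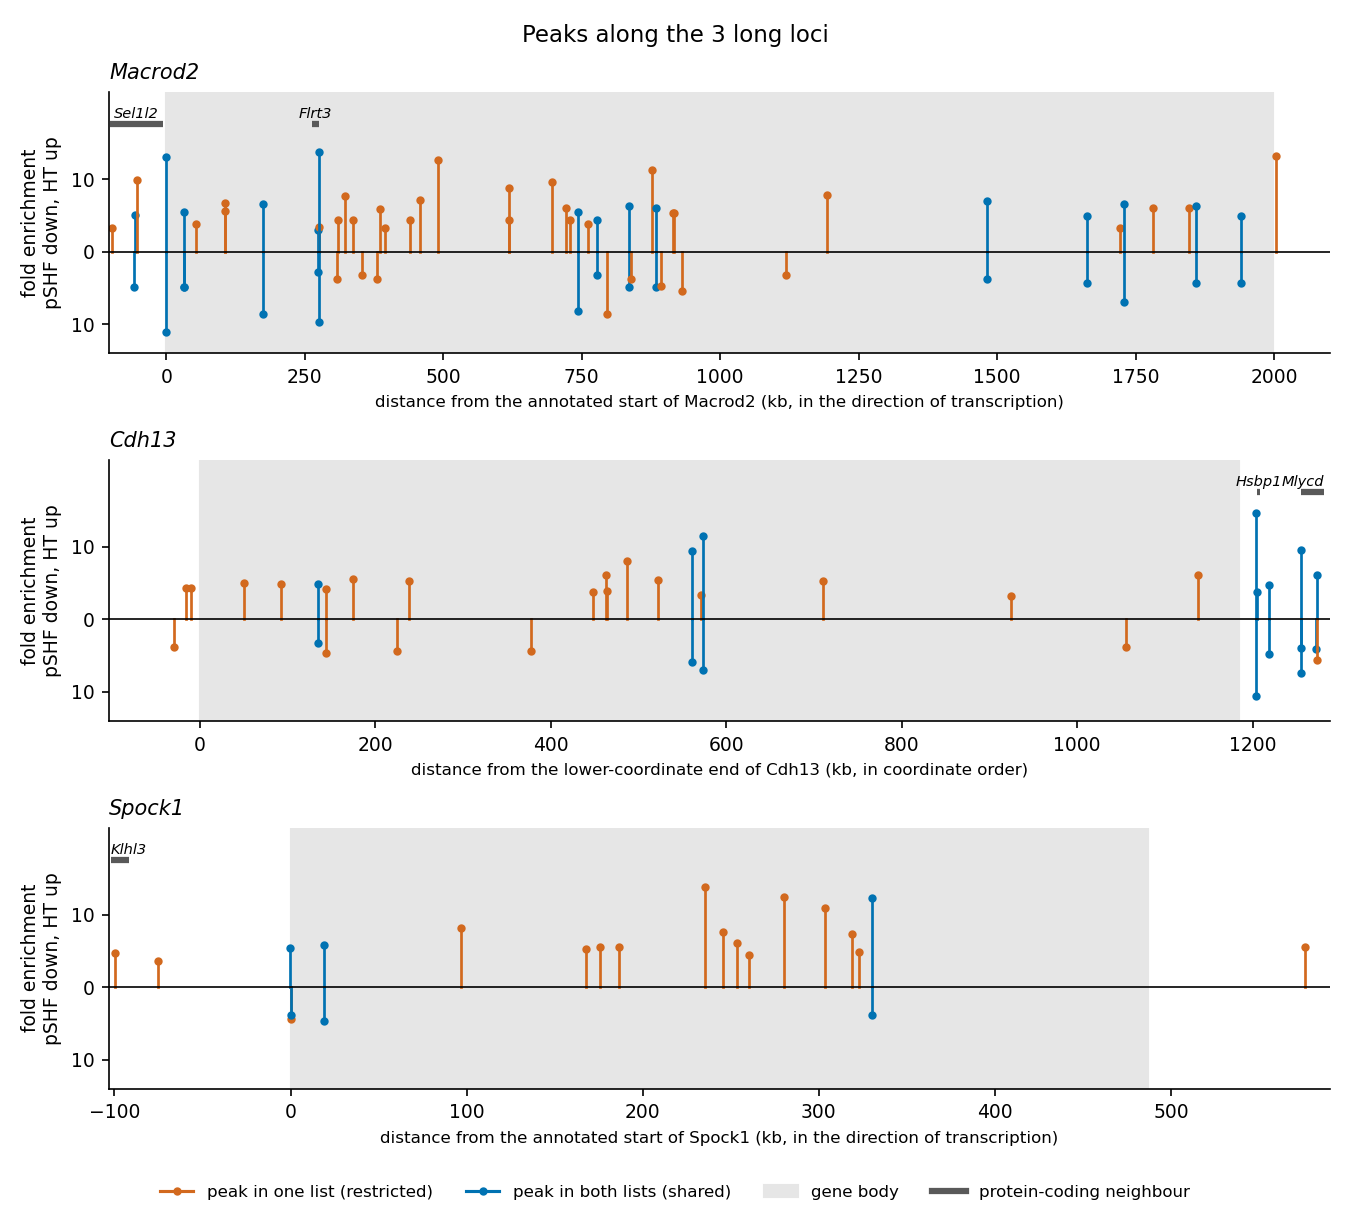
Stems show the fold enrichment of each peak (HT upward, pSHF downward) against distance in kb along *Macrod2*, *Cdh13* and *Spock1*, with the gene body in grey. HT-restricted stems crowd the first part of *Macrod2*, where 14 of its 25 in the gene lie in the first of 3 equal parts, and the middle part of *Spock1*, which has 11.

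At the compact loci the neighbouring peaks were a few kb apart. The median gap between neighbouring HT summits was 7.56 kb at *Grb10*, 7.06 kb at *Mc3r*, 9.89 kb at *Emilin2* and 10.5 kb at *Lpin2*, against 19.0 kb at *Spock1*, 32.0 kb at *Macrod2* and 35.8 kb at *Cdh13*. Over all loci it was 13.3 kb (95% interval of the median 10.3 to 17.9), and over all HT peaks 19.4 kb. Peaks with at most 10 kb between summits were joined into runs. The longest run was one of 7 at *Emilin2*, and no run at *Macrod2*, *Cdh13* or *Spock1* held more than 3.

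*Grb10* (chromosome 11, 11930499 to 12037428, minus strand) was the locus with the most shared peaks among the compact ones, 10 of 25 HT peaks. Its start carried a shared peak of 8.53 in HT and 4.80 in pSHF, and a second one lay 11.5 kb into the gene (8.92 and 6.72). Toward the far end of the gene, from 64 to 85 kb, a run of 6 HT peaks began with a shared peak (7.99 and 5.33) followed by 5 HT-restricted ones of 3.42 to 5.44. The local background of these 5 was 1.75 to 3.62 reads, where the lowest in the HT list, taken as genome-wide, was 0.824. No pSHF summit lay between the ends of the run, and 4 of the 5 restricted summits lay in the noncoding gene *LOC102631979*. Before the start, where the pSHF list had no peak within 100 kb other than the one at the start, 4 HT-restricted peaks lay at 35.1, 44.5, 52.7 and 75.4 kb. The strongest of these, at 44.5 kb, had a fold enrichment of 10.1 (chromosome 11, 12081775 to 12082045, pileup 19, interval 11.4 to 29.7). Past the far end, 9 HT and 8 pSHF peaks lay in *Ddc*, which encodes dopa decarboxylase and has a transcript known to be imprinted in the developing heart, and 6 of the 9 were shared. Between the genes, a shared peak had 11.7 in HT and 4.97 in pSHF.

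*Mc3r* (chromosome 2, 172248492 to 172251114, plus strand) is a short gene in the middle of a group of HT-restricted peaks. No HT summit lay inside its 2.62 kb body. At its start a weak HT peak had its summit 140 bases before the start (4.66, −log10 q 3.73) and a weak pSHF peak 97 bases after it (4.31, −log10 q 2.98). On the side before the start, 5 HT-restricted peaks of 3.84 to 6.61 spanned 22.2 kb around the 1 pSHF-restricted peak of the locus (5.47). On the other side lay the strongest ones. One was at 11.7 kb, between genes (11.1, −log10 q 33.7, pileup 47, interval 34.5 to 62.5). Another, at 42.2 kb (11.1, −log10 q 30.7, pileup 42, interval 30.3 to 56.8), lay inside the overlapping noncoding genes *Gm14275* and *Gm40008*. The peak at the *Gm40007* start had a fold enrichment of 6.37 (−log10 q 7.60). At 97 kb *Fam210b*, which encodes a mitochondrial protein known from red cell differentiation, had a shared peak at its start (7.09 in HT and 8.64 in pSHF) and 2 HT-restricted peaks in its body (3.44 and 5.13). Their pileups of 25 and 38 reads stood on a local background of 6.56 and 6.61 reads, the highest at the loci.

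*Lpin2* (chromosome 17, 71183532 to 71249818, plus strand) and *Emilin2* (71252172 to 71311556, minus strand) are neighbours whose windows overlap. Of the HT peaks 17 belonged to both, and the pair had 18 HT peaks together, 14 of them HT-restricted, and 9 pSHF peaks, 5 of them pSHF-restricted. All 6 HT peaks inside the *Lpin2* body were HT-restricted, and the pSHF list had none there. They had fold enrichments of 4.55, 9.29, 9.70, 6.06, 15.2 and 6.17 in order from the start. The fifth (chromosome 17, 71235429 to 71236002) had a −log10 q of 44.8 and a pileup of 51 reads (interval 38.0 to 67.1), and was the strongest HT-restricted peak of all 7 loci. The second is the peak over the inner start shown above. The first *Lpin2* start, in contrast, had 8.43 in HT and 8.23 in pSHF.

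In *Emilin2* a run of 7 HT peaks spanned 31.1 kb, from 20.5 to 51.6 kb behind its start, with 6 HT-restricted peaks of 4.04 to 7.58 and 1 shared peak (5.46 and 4.18). The outer of the 2 annotated *Emilin2* starts had no peak, and the inner one had a weak shared peak with its HT summit 218 bases after it, 4.81 in HT and 4.87 in pSHF. The pSHF-restricted peaks lay outside both genes. Of the 5, 4 were before *Lpin2*, from 24.3 to 80.7 kb, and the other was in the noncoding gene *4930471L23Rik* (5.91). An HT-restricted peak at 38.1 kb lay among the 4, and another at 12.2 kb lay between them and the gene. The farthest of the 4, with a fold enrichment of 4.31, lay in *Myom1*, which encodes the sarcomere protein myomesin 1. *Myom1* had no HT peak in the part of its body within the window.

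**Figure D4:**
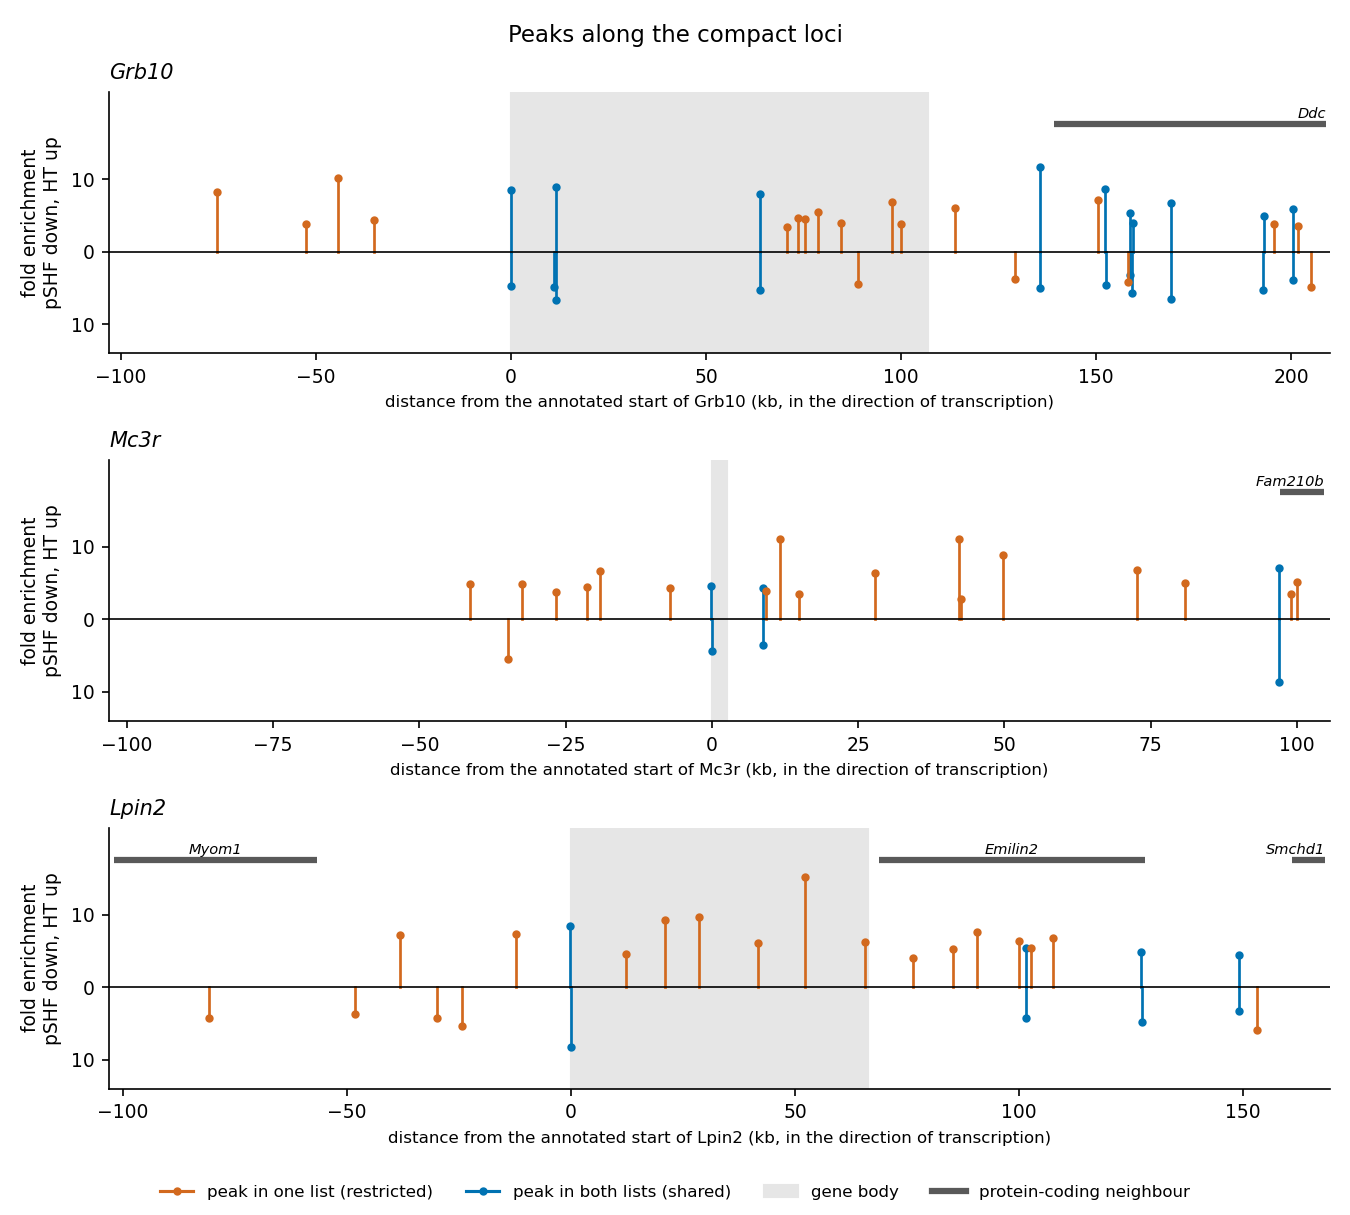
Stems show the fold enrichment of each peak (HT upward, pSHF downward) against distance in kb from the annotated starts of *Grb10*, *Mc3r* and *Lpin2*, with *Emilin2* as a neighbour in the *Lpin2* panel. Peaks of 4.55 to 15.2 fill the *Lpin2* body in the HT direction alone.

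Shared peaks at the loci were about as unequal as shared peaks elsewhere. The 42 mutually best pairs had a median HT to pSHF ratio of fold enrichment of 1.28, against 1.22 over all 26118 pairs, and HT was higher in 35 of 42, against 76.1% of all pairs. HT was higher by at least 1.5 times in 11 of 42, against 22.2%, and pSHF in 1 of 42, against 2.35%. These shares are near the background. By locus the median ratio was 1.53 at *Cdh13* (7 pairs), 1.5 at *Grb10* (10), 1.38 at *Spock1* (3), 1.16 at *Lpin2* and *Emilin2* (4), 1.15 at *Macrod2* (15) and 1.08 at *Mc3r* (3). Of the 11 pairs at or above 1.5, 5 were at *Grb10*, 4 at *Cdh13* and 1 each at *Macrod2* and *Spock1*.

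**Figure D5:**
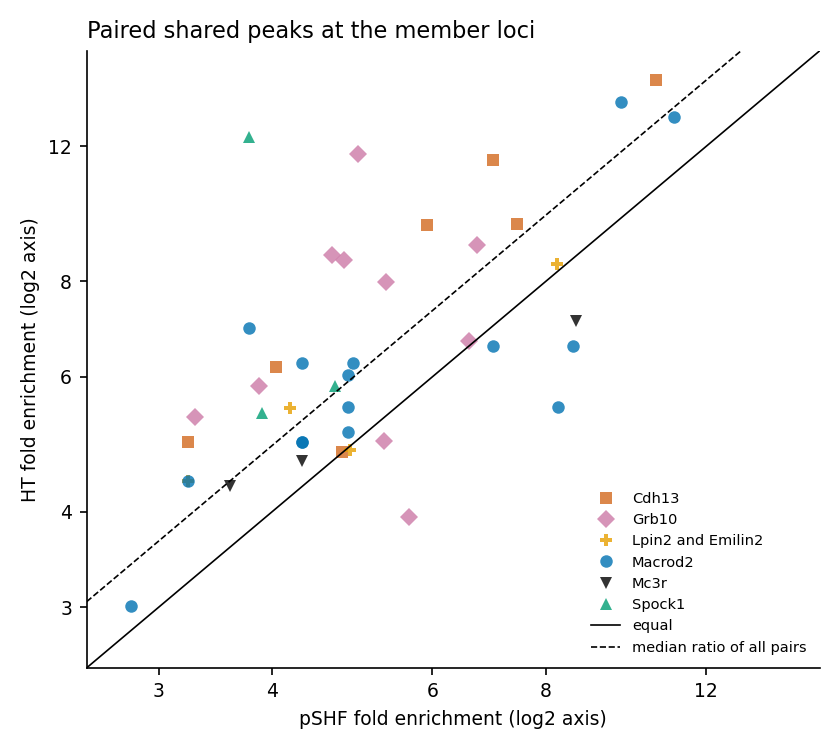
Each of the 42 paired shared peaks is a point with its pSHF (horizontal) and HT (vertical) fold enrichment on log2 axes. The solid line marks equal values and the dashed line the median ratio of all pairs, 1.22. The *Spock1* point with 12.3 in HT and 3.77 in pSHF lies farthest above the lines, and a *Macrod2* point with 5.48 and 8.26 lies farthest below.

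Most HT peaks of both classes lay away from gene ends. Of the 105 HT-restricted peaks, 8 had a summit within 1 kb of either end of an annotated gene, against 14.4% of all HT-restricted peaks. Of the 43 shared HT peaks 15 did, against 52.5% of all shared HT peaks. The median width was 200 bp in the HT-restricted and 270 bp in the shared HT peaks, against 173 and 351 bp over the whole HT list. The 100 kb limit fell between HT peaks of similar strength on some sides of the loci. The outermost inside and the next outside had 6.18 and 6.05 past the higher coordinate of *Cdh13*, and 7.32 and 7.13 past the far end of *Emilin2*. They differed more past the far end of *Mc3r* (5.13 and 11.5). At *Grb10* the outermost HT peak inside lay 94925 bp past the gene (3.5) and the next one outside 107737 bp (3.97). At *Spock1*, on the side before the start, the outermost one inside lay 99686 bp from the gene (4.76) and the next outside 127339 bp (6.06).

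Relatives of the 7 genes had smaller differences in count, which follows in part from choosing the 7 for a large one. Over 19 paralogs counted with the same window, HT-restricted peaks outnumbered pSHF-restricted ones at 13, the reverse held at 3, and 3 were equal, against 55.0% and 20.5% of all protein-coding gene windows. The median difference was 2 and the range -2 to 6, where the 7 genes had 9 to 20. The largest was at *Cdh5*, the cadherin of endothelium, with 8 HT-restricted and 2 pSHF-restricted peaks. *Macrod1* had 10 and 6, *Spock2* 5 and 4, *Grb14* 6 and 3, *Emilin3* 3 and 0, and *Lpin1* 1 and 2. The windows differ in length, and per 100 kb *Macrod1* had 2.93 HT-restricted peaks against 1.27 at *Macrod2*. *Cdh5* had 3.29, *Cdh1* 2.62, *Cdh2* 1.19 and *Cdh11* 0.849, against 1.16 at *Cdh13*. *Spock1* and *Spock2* both had 2.18, and *Spock3* 0.165. *Grb10*, *Mc3r*, *Emilin2* and *Lpin2* were denser than all their relatives, which also follows in part from the choice. Windows of *Emilin3* and *Lpin3* overlap, as do those of *Mc2r* and *Mc5r*.

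The genes of most like pattern were found by the distance over 3 counts, the HT-restricted, shared HT and pSHF-restricted peaks, in these 2 lists. For *Macrod2* it was *Gse1* with 27, 21 and 9 (distance 6.16), a gene of 353 kb, much shorter than *Macrod2*. Ties were broken by the nearest length of the gene body. For *Cdh13* it was *Chd7* with 16, 8 and 5, and for *Grb10* it was *Fads2* with 15, 9 and 4, both at a distance of 1. For *Lpin2* it was *Cpeb4* with 14, 4 and 6, also at a distance of 1 and tied with *Snx29* of the same counts, and for *Emilin2* the uncharacterised *LOC115489489* with identical counts of 13, 4 and 3. For *Spock1* and *Mc3r* it was *Hbb-bh2*, in the beta-globin cluster, with 14, 3 and 1, at distances of 1 and 3. Its neighbours *Hbb-bs* and *Hbb-bt*, whose windows overlap with its own, had the same counts, so 3 genes tied for *Spock1* and 5 for *Mc3r*.

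Markers of several cell types differed between the tissue pieces in these lists, counted within 10 kb of each gene, so that a peak near 2 markers counts at both. The 7 myocardial markers had 18 HT-restricted and 2 pSHF-restricted peaks, with HT-restricted ones at 6 of the 7 and none at *Tnnt2*. The 2 pSHF-restricted ones were at *Myl7* and *Tnnt2*. The 6 markers of the pSHF had 1 and 10, with pSHF-restricted ones at 5 of the 6 and none at *Osr1*. The HT-restricted one was at *Foxf1*. Both directions follow the labels, but HT-restricted peaks also outnumbered pSHF-restricted ones over the whole lists, 22400 to 15132. The 5 erythroid markers had 18 and 0, with HT-restricted peaks at 4 of the 5 and none at *Alas2*. The 5 endothelial markers had 18 and 5, with HT-restricted peaks at all 5. The 4 foregut endoderm markers had 4 and 4, and the 3 epicardial markers 4 and 2, with HT-restricted peaks at every marker of both lists. An HT-restricted peak at every marker was thus not particular to the endothelial list. No share over all genes was set beside these counts. The part of blood, endothelial or muscle cells in the peak clusters at the 7 loci was not tested.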

How the data were processed

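The data are ATAC-seq peak lists of the pSHF and the atria, 1 per tissue, with 3 samples of each tissue. The build mm10 and the programs MACS2 2.1.1, Bowtie2 2.3.2, Picard and SAMtools 1.5 are named per the submitters' processing notes. Which program did what, with which settings, and whether samples were pooled, was not given in the sources used here. In the deposited lists the columns are a score, the fold enrichment as a ratio, and the −log10 of the p-value and q-value at each summit, all made by the authors. The lists held 60223 HT and 58887 pSHF lines, and lines of equal interval were merged at the summit of highest fold enrichment. Read totals were not in the lists, so the pileup was recovered from fold enrichment taken as (pileup + 1)/(background + 1) and the Poisson p, which matched within 0.01 at 100% of summits. The lowest local background, taken as genome-wide, was 0.824 reads in HT and 0.857 reads in pSHF. Shares carry exact Clopper-Pearson intervals and pileups exact Poisson intervals, which cover counting error only. Genes, promoters and strands came from RefSeq GRCm38.p6. Exons were not used here.

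The members, gene lists, motifs and rules were chosen with earlier results of these data known. The text names the 7 genes, their protein-coding and some noncoding neighbours, 19 paralogs and the gene of most like counts for each. Noncoding neighbours and single peaks beyond the strongest were chosen after their values were seen. The count and pileup steps were tested on simulated data. Python 3.11.15, pandas 2.3.3 and SciPy 1.17.1 were used. Alternatives covered the overlap rule, the threshold, the window, the assignment of peaks and the merging of lines.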

Additional observations from a re-analysis of the deposited data

How the results depend on the processing

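No paired analysis was possible because each tissue has 1 deposited list without values per replicate, and for the same reason no replicate could be left out. Under 10 alternatives, 69 of 70 differences between HT-restricted and pSHF-restricted counts per gene stayed above 0, and the exception was 0 at *Mc3r* when only its body was counted, which holds no HT summit. Since the genes were chosen for this excess in the same lists, its sign was largely fixed beforehand and lends no support. The 70 values are not separate, as *Emilin2* and *Lpin2* share most of their peaks. Of the 70, 55 stayed within 1.5 times the main value. Over the loci, HT-restricted peaks numbered 105, or 61 once a −log10 q of 5 was required and 47 once the list's median fold enrichment was. pSHF-restricted peaks numbered 25, or 42 with 50% reciprocal overlap, 6 with a −log10 q of at least 5, 7 when both lists were limited to that value, 7 with the median fold enrichment required and 14 in gene bodies alone. The median fold enrichment of HT-restricted peaks was 6.79, 6.37 and 7.39, and the median gap between HT summits 22.3, 22.3 and 26.2 kb, with these 3 stronger thresholds in the same order, since weak peaks drop out. The median log2 ratio of pairs, 0.35, rose to 0.49 with the last of these and fell to 0.25 (95% interval of the median -0.09 to 0.50) with both lists limited to a −log10 q of 5. The lowest excess per gene was 13 at *Macrod2*, 3 at *Cdh13*, 7 at *Spock1*, 4 at *Grb10*, and 6 at *Emilin2* and *Lpin2*. With a median of 11 reads at a summit, a site restricted to HT can still have had some signal in the pSHF.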
